A study of Mus musculus with 4 samples.

Results

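The transcripts described here encode digestive enzymes that the exocrine pancreas pours into the gut, followed in RNA of small intestine. The list names 10 genes: Prss2, Ctrb1, Cela1, Cela2a and Cela3b for serine proteases, Cpa1 and Cpb1 for carboxypeptidases, and Pnlip, Cel and Clps for fat digestion. All 10 had a probe on the array, out of 21153 named genes with one. Clps had 2 probes and the other 9 genes had 1 each. The knockout group held 2 arrays of small intestine from mice without the Cyp3a cluster (Cyp3a-/-), and the wild-type group held 2 arrays of small intestine from mice that carry it. Cyp3a genes encode cytochrome P450 enzymes that oxidise drugs and steroids. The design text speaks of independent experiments on different mice, without saying which arrays belong to which. Strain, age, sex, the stretch of small intestine taken, how the deletion was made and how many mice stand behind an array are not given in the sources used here. Across the 24014 probes well above background on at least 2 arrays, knockout 1 and 2 correlated at 0.955, and wild type 1 and 2 at 0.979. The pairs across genotypes lay at 0.968 and 0.969 for knockout 1 and at 0.984 and 0.980 for knockout 2, so knockout 1 stood apart from the other 3 arrays.

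Pancreatic acinar cells store most of these proteins as inactive zymogens and release them into the duodenum. There enteropeptidase, a membrane protease of the intestinal lining, cuts trypsinogen to trypsin, which then activates chymotrypsinogen, the proelastases and the procarboxypeptidases. Pancreatic lipase needs colipase, the product of Clps, to work on fat droplets coated with bile salts, while carboxyl ester lipase (Cel) is itself switched on by bile salts. In acinar cells many of these genes are driven by PTF1, a complex of the transcription factor Ptf1a with Rbpjl or its relative Rbpj.

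Clps, Cela1, Ctrb1 and Cel, 4 of the 10 genes, gave signal well above background on all 4 arrays, and the other 6 did so on none. Well above background is the scanner software's own flag for a spot clearly brighter than its background. Over all named genes, with the brightest probe of each, 61.7% were well above background on all 4 arrays and 27.7% on none. The 6 genes without such signal were the trypsinogen gene Prss2, the elastase genes Cela2a and Cela3b, both carboxypeptidase genes and the pancreatic lipase gene Pnlip. The same 6 fell short on both knockout and both wild-type arrays, so no gene crossed the flag between genotypes.

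**Figure D1:**
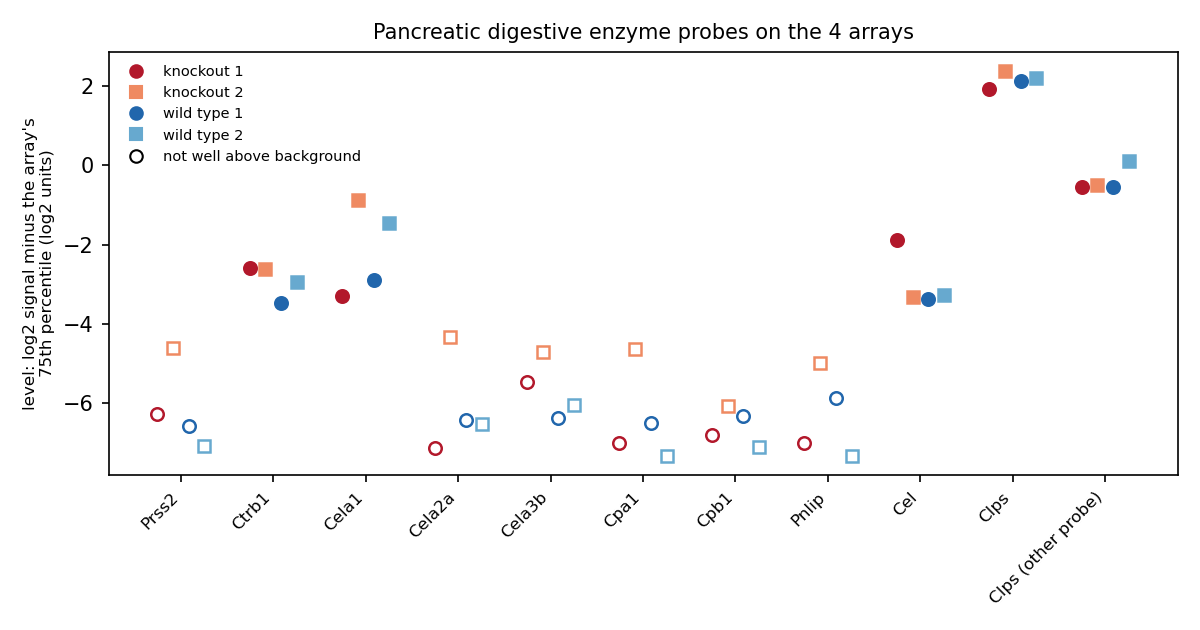
Level of each probe of the 10 genes on the 4 arrays, as log2 signal minus the 75th percentile of the same array. Each point is 1 array, with knockout left of wild type, and open points were not well above background. Only Clps, Cel, Cela1 and Ctrb1 have filled points, and the open points of knockout 2 sit above those of the other arrays.

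The upstream sequences of 5 of these genes, from both sides of that split, are shown, each with at least 1 of 2 motifs of acinar control. Cela3b, Cpa1 and Cpb1 also hold 1 of these motifs and are not shown, and Pnlip holds neither. RefSeq's promoter table (GRCm38.p6) matched 9 of the 10 genes. Each line gives the 250 bases before the annotated start, 5′ to 3′ on the gene's strand. Capitals mark CACCTG, an E-box, and TTTCCC, the TC box that stands beside an E-box in PTF1 sites, on either strand. Cela1 (chr15:100687921-100688170, minus strand) and Cel (chr2:28563404-28563653, minus strand) were measured on all arrays, as was Ctrb1 (chr8:111691011-111691260, minus strand). Cela2a (chr4:141826006-141826255, minus strand) and Prss2 (chr6:41521526-41521775, plus strand) were measured on none.
Cela1: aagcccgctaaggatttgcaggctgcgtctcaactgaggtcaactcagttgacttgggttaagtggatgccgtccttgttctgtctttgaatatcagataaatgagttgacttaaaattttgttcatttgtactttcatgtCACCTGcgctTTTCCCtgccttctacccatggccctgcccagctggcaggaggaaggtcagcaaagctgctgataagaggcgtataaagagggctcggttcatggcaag
Cel: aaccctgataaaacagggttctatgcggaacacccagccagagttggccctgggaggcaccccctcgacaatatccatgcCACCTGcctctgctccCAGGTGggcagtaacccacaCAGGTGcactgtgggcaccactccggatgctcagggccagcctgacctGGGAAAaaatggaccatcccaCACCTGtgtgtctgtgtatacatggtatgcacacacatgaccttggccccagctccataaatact
Ctrb1: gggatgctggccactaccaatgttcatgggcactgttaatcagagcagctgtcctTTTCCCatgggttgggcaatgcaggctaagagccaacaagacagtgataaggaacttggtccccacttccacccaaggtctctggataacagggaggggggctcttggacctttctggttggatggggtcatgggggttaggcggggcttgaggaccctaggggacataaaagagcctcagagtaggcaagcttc
Cela2a: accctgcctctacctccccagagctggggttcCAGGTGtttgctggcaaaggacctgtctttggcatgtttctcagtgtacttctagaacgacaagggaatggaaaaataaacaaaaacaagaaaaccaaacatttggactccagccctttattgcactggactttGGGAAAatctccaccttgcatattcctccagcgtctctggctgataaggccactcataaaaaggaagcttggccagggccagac
Prss2: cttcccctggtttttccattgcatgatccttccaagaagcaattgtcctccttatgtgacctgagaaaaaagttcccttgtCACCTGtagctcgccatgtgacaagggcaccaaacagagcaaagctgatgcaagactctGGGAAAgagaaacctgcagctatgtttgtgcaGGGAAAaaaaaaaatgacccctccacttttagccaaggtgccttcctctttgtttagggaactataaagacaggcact

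In Cela1 the E-box begins 109 bases before the start and 4 bases separate it from the TC box. In Cel 15 bases lie between the nearest pair, in Prss2 53 and in Cela2a 128. Ctrb1 held a TC box and no CACCTG. Of the 9 matched genes, 6 held CACCTG, 6 held TTTCCC and 4 held both. Among 32851 promoters of the same length, the shares were 17.2%, 21.9% and 3.61%. The motifs shared a base in 25 of those promoters. Both motifs within 20 bases of each other occurred in 2 of the 9 genes, Cela1 and Cel, and in 0.785% of promoters. Both motifs occurred in measured and in unmeasured genes, and a match is a description of the letters only.

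Clps, the colipase gene, had the same level in both genotypes within the spread of the arrays. A level here is the log2 signal minus the 75th percentile of the same array. Clps had levels of 1.93 and 2.40 in knockout 1 and 2 and of 2.14 and 2.21 in wild type 1 and 2, from signals of 922 to 1648 scanner units. The knockout arrays enclosed both wild-type arrays, so the genotypes overlapped. The difference, knockout minus wild type, was -0.01 (log2, SE 0.29, limma's adjusted p = 1.00). Its 95% interval ran from -0.71 to 0.69, or from 0.610-fold to 1.61-fold. The second Clps probe had levels of -0.53 and -0.49 in knockout and of -0.54 and 0.11 in wild type, a difference of -0.30. On this probe wild type 2 stood above the other 3 arrays.

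Cel, which encodes the bile salt-activated lipase that splits cholesterol and vitamin esters, stood out on a single array. Its levels were -1.88 and -3.33 in knockout 1 and 2 and -3.37 and -3.26 in wild type 1 and 2. Knockout 1 was high and the other 3 arrays lay close together. The mean was -2.60 ± 1.02 in knockout and -3.32 ± 0.08 in wild type (SD, n = 2 each), a difference of 0.71 (SE 0.55, limma's adjusted p = 1.00). Without knockout 1 the difference was -0.01. Without knockout 2 it was 1.44 (limma's adjusted p = 0.101), and with normexp background correction of all 4 arrays it was 0.45.

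Cela1, the pancreatic elastase gene 1, varied more between arrays of a genotype than between genotypes. It had levels of -3.29 and -0.88 in knockout 1 and 2 and of -2.90 and -1.46 in wild type 1 and 2. Knockout 2 and wild type 2 were high, knockout 1 and wild type 1 low, and the genotypes overlapped. The mean was -2.08 ± 1.71 in knockout and -2.18 ± 1.02 in wild type (SD, n = 2 each), and the difference of 0.09 (SE 0.86, limma's adjusted p = 1.00) had a 95% interval from -2.01 to 2.20. Without knockout 1 it was 1.30 and without knockout 2 it was -1.11. Within the slide that held both genotypes (knockout 1 and wild type 2) it was -1.84.

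The order of arrays seen for Cela1, from knockout 2 through wild type 2 and wild type 1 down to knockout 1, was found in 8.86% of all genes tested. It was found in 5 of 7 tested genes of stomach and Brunner glands, in 5 of 7 smooth muscle genes and in 4 of 8 fat cell genes. These were the lists with the highest shares. Among acinar genes it was found in 0 of 6 other enzymes, 2 of 12 granule genes and 2 of 7 transcription factors. For pancreatic duct genes it was 1 of 7. Of the stomach and Brunner gland genes, Tff2 was one that did not share this order. Tff1, a trefoil peptide of gastric surface cells, had levels of -0.16 and 9.45 in knockout 1 and 2 and of 4.57 and 8.56 in wild type 1 and 2. Muc5ac, a gastric mucin gene, had levels of -4.02 and 3.48 in knockout and of -3.41 and 2.94 in wild type. Of the 11 stomach and Brunner gland genes listed, 9 had a probe. Their summed signal, in units of each array's 75th percentile, was 446 and 2237 in knockout and 1182 and 1306 in wild type. Tff2 made up the largest part of each sum, with levels of 8.79 and 10.42 in knockout and of 10.17 and 9.68 in wild type. Atp4a and Atp4b, the acid pump genes of parietal cells, stayed below the flag on all 4 arrays. The part of such cells in the Cela1 values was not tested. In whole tissue, fewer cells of a type and less RNA per cell cannot be told apart.

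Ctrb1, the chymotrypsinogen B gene, was the only gene of the 4 with both knockout arrays above both wild-type arrays. It had levels of -2.60 and -2.63 in knockout 1 and 2 and of -3.48 and -2.95 in wild type 1 and 2. On this scale the knockout arrays were nearly equal, and wild type 1 was the low array. Unscaled signals, 53.1 and 28.4 in knockout 1 and 2 and 20.2 and 46.1 in wild type 1 and 2, overlapped. The difference in mean level was 0.60, or 1.52-fold after scaling (SE 0.39, limma's adjusted p = 1.00), with a 95% interval from -0.34 to 1.54. It was 0.35 within the shared slide, between 0.33 and 0.87 when single arrays were left out, and 0.30 with normexp background correction.

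None of the 4 measured genes passed the threshold of 0.05. Limma called 0 of 4 higher and 0 of 4 lower, and 0 had an unadjusted p under 0.05. Over the 14395 genes tested, 0% were called higher and 0.0417% lower, which were 6 genes of the deleted Cyp3a cluster. At an unadjusted p under 0.05, 0.167% of all genes were higher and 0.271% lower. Without overlap of the genotypes, 1 of the 4 genes was higher and 0 were lower, where the shares over all genes were 8.66% and 6.09%. Their median difference was 0.35, against 0.04 over all genes, and 0.03 against 0.08 over all genes within the shared slide. With 2 arrays per genotype, the 95% interval was widest for Cela1, from 0.249-fold to 4.58-fold.

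**Figure D2:**
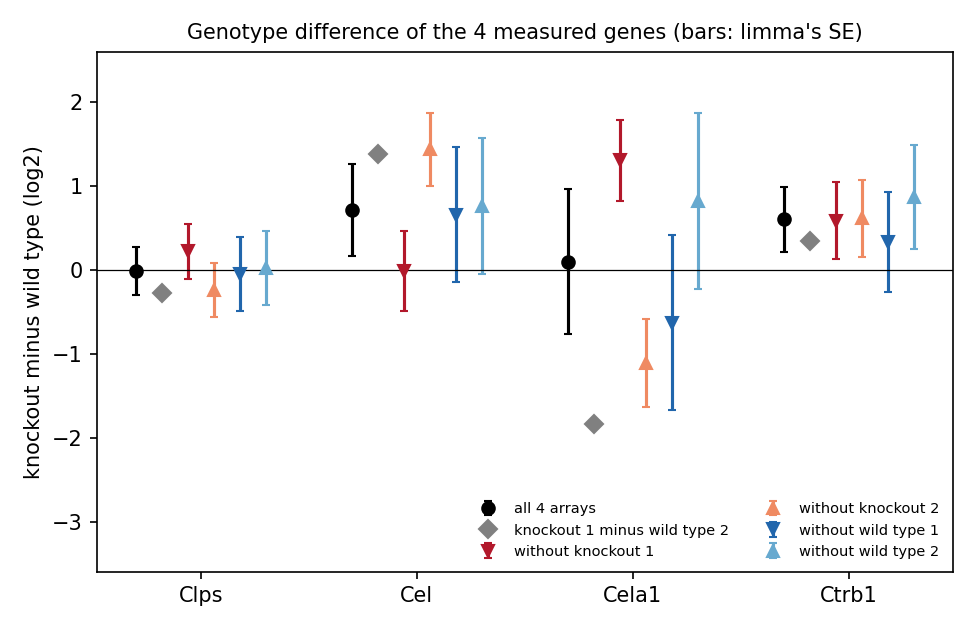
Knockout minus wild-type difference (log2) of the 4 measured genes with all 4 arrays, within the shared slide and with each array left out. Bars are limma's SE, and the value within the slide has none. Ctrb1 stays above 0 throughout, and Cela1 lies between -1.84 and 1.30.

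The 6 remaining genes had signals too low for a level, and their scanner signals are given instead. The dimmest signal flagged as well above background was 11.3 and 10.8 in knockout 1 and 2 and 11.53 and 9.94 in wild type 1 and 2. Negative control spots, which match no transcript, had medians of 2.77 and 2.52 in knockout and of 2.67 and 2.45 in wild type.

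Cela2a, which encodes pancreatic elastase 2A, had signals of 2.27 and 8.74 in knockout 1 and 2 and of 2.62 and 3.84 in wild type 1 and 2. Prss2, the trypsinogen gene, had signals of 4.11 and 7.17 in knockout and of 2.34 and 2.62 in wild type. Both had their highest signal in knockout 2.

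Cpa1, the carboxypeptidase that removes aromatic and aliphatic residues, had signals of 2.48 and 6.99 in knockout and of 2.48 and 2.20 in wild type. Pnlip, the main enzyme of triglyceride digestion, had signals of 2.51 and 5.48 in knockout and of 3.84 and 2.20 in wild type. These too were highest in knockout 2, while knockout 1 lay among the negative control spots.

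Cela3b, whose human counterpart has little elastin-splitting activity, had signals of 7.30 and 6.64 in knockout and of 2.69 and 5.36 in wild type. Cpb1, the carboxypeptidase that removes basic residues, had signals of 2.85 and 2.57 in knockout and of 2.78 and 2.58 in wild type. Cela3b was above the negative controls on 3 arrays, and Cpb1 lay within their range on all 4.

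In knockout 2, 5 of the 6 genes had a signal above every unflagged negative control spot of the array. The number was 2 in knockout 1, 0 in wild type 1 and 2 in wild type 2. Among the 5850 named genes that were well above background on no array, the shares above every negative control spot were 38.1% and 27.8% in knockout 1 and 2 and 27.0% and 43.0% in wild type 1 and 2. The signal was highest in knockout 2 for 4 of the 6 genes and in knockout 1 for the other 2. Of those 5850 genes, 49.5% and 9.68% had their highest signal in knockout 1 and 2, and 16.7% and 24.1% in wild type 1 and 2. On the scaled level all 6 were highest in knockout 2, as were 68.8% of the 5850. That array had the lowest 75th percentile, 175, against 322 in knockout 1 and 226 and 356 in wild type 1 and 2, so a fixed background signal gives a higher level there.

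**Figure D3:**
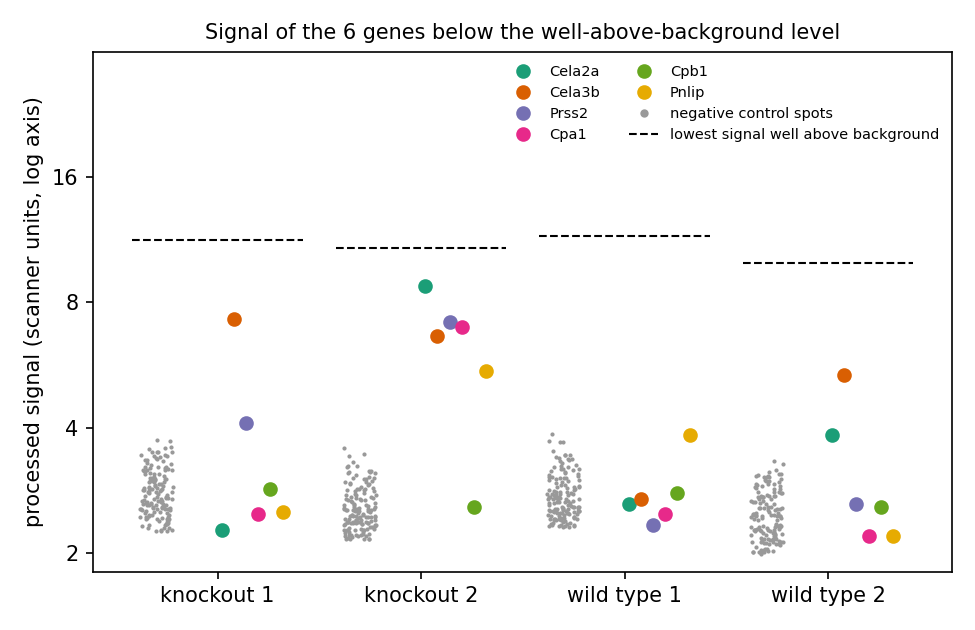
Processed signal (scanner units, log axis) of the 6 genes that were well above background on no array, with the negative control spots (grey) and the dimmest flagged signal (dashed) of each array. Cela2a, Prss2, Cpa1, Cela3b and Pnlip lie above the control spots in knockout 2, at 5.48 to 8.74, while Cpb1 lies among them.

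Some other enzymes of the acinar cell gave clearer signal in knockout 2 alone. Of 16 listed genes 12 had a probe, with 15 probes in all. Amy2a5, a pancreatic amylase gene, had levels of -7.12 and 0.06 in knockout 1 and 2 and of -6.58 and -6.89 in wild type 1 and 2, from signals of 2.31 and 182 in knockout and of 2.36 and 2.99 in wild type. Knockout 2 was the only array with signal well above background, and a second Amy2a5 probe showed the same with a level of -2.94 there.

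The trypsinogen genes Try5 and Try4 had the same pattern. Try5 had signals of 4.35 and 37.4 in knockout and of 3.35 and 2.98 in wild type. Try4 had signals of 3.97 and 20.4 in knockout and of 2.53 and 4.35 in wild type. A second probe of the elastase gene Cela3a had signals of 3.20 and 23.7 in knockout and of 4.31 and 5.37 in wild type, while its brighter probe was well above background on no array. Only knockout 2 was flagged for any of these probes.

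With the brightest probe per gene, 3 of the 12 genes were well above background in knockout 2 alone, and 0 in any other array alone. Over all named genes 0.165% were so in knockout 2 alone, 0.728% in knockout 1 alone, 0.217% in wild type 1 alone and 3.21% in wild type 2 alone. Trypsinogen genes are close in sequence, as are amylase genes, so signal on 1 probe may include transcripts of a relative. Since a single array carries it, this signal has no replicate check and cannot be assigned to genotype. Amy2a5, Try4 and Try5 were measured on fewer than 2 arrays and did not enter the fit.

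**Figure D4:**
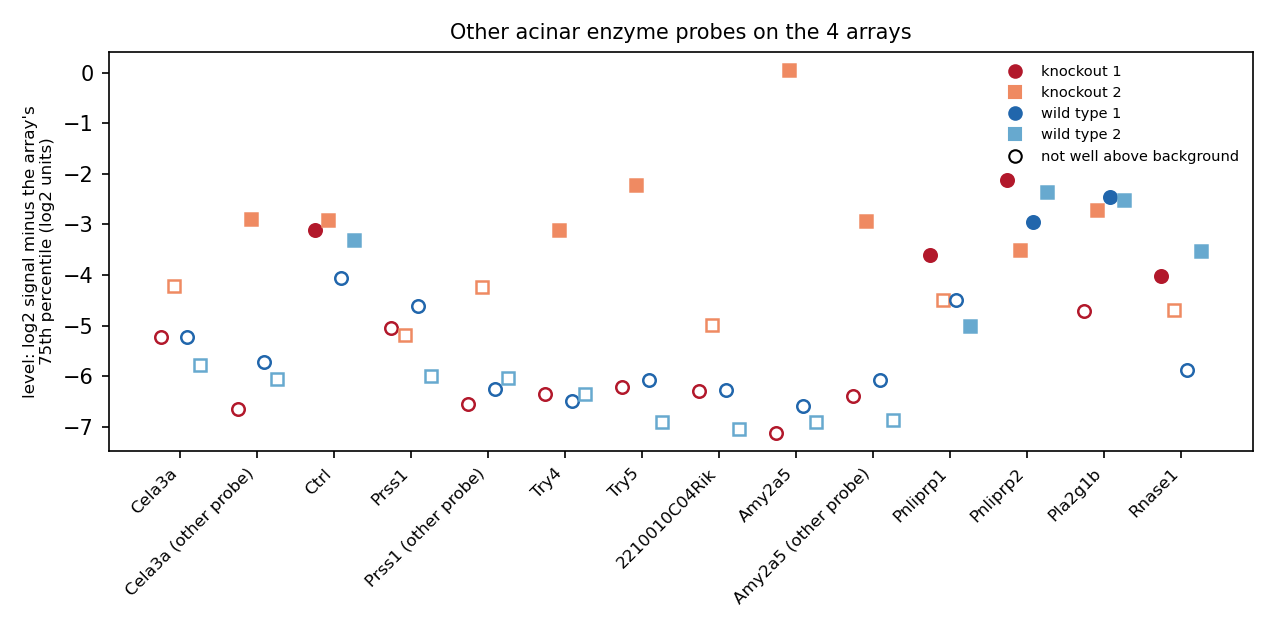
Level of each probe for 11 of the 12 other acinar enzyme genes on the 4 arrays (log2 signal minus the array's 75th percentile), with knockout left of wild type and open points not well above background. Amy2a5, Try4, Try5 and the second Cela3a probe have a filled point in knockout 2 and open points elsewhere.

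Further acinar enzymes were measured on other arrays as well. Pla2g1b, the secreted phospholipase A2 gene, had levels of -4.72 and -2.72 in knockout and of -2.45 and -2.51 in wild type. Both knockout arrays lay below both wild-type arrays for Pla2g1b, and knockout 1 was not well above background.

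Ctrl, a chymotrypsin-like protease gene, had levels of -3.10 and -2.91 in knockout and of -4.06 and -3.30 in wild type. The genotypes did not overlap for Ctrl, and wild type 1 was not well above background. Pnliprp2, a lipase related to Pnlip, had levels of -2.11 and -3.50 in knockout and of -2.96 and -2.35 in wild type. Pnliprp1 and the ribonuclease gene Rnase1 were each measured on 2 arrays, and Prss1 and 2210010C04Rik on none. Of the 6 genes of this list that entered the test, limma called 0 higher and 0 lower (adjusted p = 1.00 each). Differences were positive in 3, and the median was 0.10 against 0.04 over all genes. Without overlap, 1 of the 6 was higher and 1 lower, where the shares over all genes were 8.66% and 6.09%.

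Of 15 listed granule and surface products that accompany these enzymes, 11 were well above background on all 4 arrays. Cuzd1, Serpini2 and Aqp12 were so on none. The median level was -0.09 and 0.14 in knockout and 0.23 and 1.35 in wild type. The brightest products are also made by the gut itself. Reg1, a secreted lectin gene, had levels of 8.91 and 8.13 in knockout and of 8.60 and 7.64 in wild type. Dmbt1, a mucosal scavenger receptor gene, had levels of 8.24 and 8.57 in knockout and of 8.48 and 7.46 in wild type. Tff2, the trefoil peptide of Brunner glands, had levels of 8.79 and 10.42 in knockout and of 10.17 and 9.68 in wild type. Genotypes overlapped for all 3. Gp2, the main zymogen granule membrane protein, which M cells of the gut also carry, had levels of -0.98 and 3.38 in knockout and of 1.37 and 3.18 in wild type on its brighter probe, the order of arrays seen for Cela1. Sycn, which encodes syncollin of the zymogen granule membrane, had levels of -0.71 and -0.54 in knockout and of -0.95 and -1.63 in wild type. It was the only tested gene of the list without overlap and higher in knockout (1 of 12, against 8.66% of all genes). Of 15 listed genes 12 were tested and 0 were called, with a median difference of 0.29.

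Among the transcription factors of acinar cells, Ptf1a was not well above background on any array. Rbpjl, its acinar partner, was measured on all 4, with levels of -4.02 and -2.16 in knockout and of -3.79 and -2.33 in wild type, again with knockout 2 and wild type 2 high. Xbp1, which drives secretory capacity in many cell types, had levels of 5.25 and 5.55 in knockout and of 5.72 and 5.92 in wild type. Bhlha15 (Mist1), a factor of secretory cells, had levels of -0.81 and 0.09 in knockout and of 0.18 and 0.85 in wild type. For Xbp1 and Bhlha15 both knockout arrays lay below both wild-type arrays, 2 of 7 genes tested, where the share over all genes was 6.09%. Gata4 and Gata6, which the proximal gut also uses, overlapped between genotypes. Of the 8 listed factors 7 were tested, 0 were called and the median difference was -0.03.

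On the gut side of zymogen activation, Tmprss15, which encodes enteropeptidase, had levels of 4.52 and 2.24 in knockout and of 3.33 and 3.37 in wild type. Spink1, the trypsin inhibitor gene, had levels of 7.52 and 6.51 in knockout and of 6.78 and 6.28 in wild type. Both were highest in knockout 1, the genotypes overlapped and neither was called (limma's adjusted p = 1.00 each). Cst3, a cysteine protease inhibitor gene of many tissues, had levels of 3.40 and 4.30 in knockout and of 3.96 and 4.11 in wild type. Of 9 listed genes of zymogen activation 7 were tested and 0 called, 2 were positive and the median difference was -0.97. That median was 1.24 for knockout 1 minus wild type 2 and -3.19 for knockout 2 minus wild type 1. Serpina1a, also listed for liver, had levels of -2.21 and -0.92 in knockout and of 2.44 and -3.51 in wild type on its brighter probe. Serpina1a, Serpina1c, Serpina1d and Serpina1e were all highest in wild type 1, with differences of -1.03, -1.02, -1.57 and -0.97. The median of the list was the value of Serpina1e. Differences of the remaining tested genes, Tmprss15, Spink1 and Cst3, were 0.03, 0.48 and -0.18. Brush border digestive enzymes were well above background on every array in all 15 listed genes. Lct, the lactase gene, had levels of 6.37 and 4.85 in knockout and of 5.50 and 4.54 in wild type. The 15 genes had positive differences, with a median of 0.26 and 0 calls, where 8096 of all 14395 genes tested were positive. The direction depended on the arrays: the median was 1.39 for knockout 1 minus wild type 2 and -0.61 for knockout 2 minus wild type 1, and 0 of the 15 were positive in the second pair.

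The arrays carried the markers of their labelled tissue and genotype. All 11 small intestine identity genes with a probe, Fabp2 and Apoa1 among them, were well above background on all 4 arrays. Cyp3a11, of the deleted cluster, was not well above background on its brightest probe in either knockout array. Its dimmer probe had signals of 28.8 and 8.84 in knockout, the first well above background, and of 1207 and 2582 in wild type. The 6 tested cluster genes were called lower. Genes of other tissues also differed between arrays. Smooth muscle genes, all 7 of them measured, had summed signals of 97.7 and 299 in knockout 1 and 2 and of 172 and 198 in wild type 1 and 2, with the highest in knockout 2. Fat cell genes well above background numbered 6 and 8 of 10 in knockout and 7 and 8 in wild type, with summed signals of 27.0 and 19.1 in knockout and of 18.8 and 22.1 in wild type. Cidec and Pparg weighed most in these sums, with levels of 3.95 and 3.24 in knockout 1, where both were highest. The other tested genes of the list, Adipoq, Retn, Cfd, Fabp4, Lpl and Car3, were lowest in knockout 1. In 4 of 8 tested fat cell genes the order of arrays was that of Cela1. Adipoq was one, with levels of -6.47 and -2.24 in knockout and of -4.80 and -3.83 in wild type. Liver genes numbered 3 and 7 of 12 in knockout and 11 and 6 in wild type, with summed signals of 1.01 and 3.57 in knockout and of 13.1 and 2.72 in wild type. The part of these cell types in the acinar signal of knockout 2 was not tested.

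The 10 non-member genes whose pattern over the 4 arrays lay nearest the median pattern of the digestive enzyme genes are given for reference. Likeness was the Euclidean distance between profiles centred on their own mean, over 4 arrays. The median pattern was -0.24 and 1.096 in knockout 1 and 2 and -0.36 and -0.41 in wild type 1 and 2, so knockout 2 alone was high. Of the 10 genes behind it, 6 were below the flag, where a fixed background signal gives a higher level in knockout 2. Before scaling, 4 of these 6 still had their highest signal in knockout 2, and 2 had it in knockout 1. The unscaled median signal of the 6 was 6.82 in knockout 2 and 2.68 or lower on each other array. The part of the scaling in the median pattern was not tested. Nearest were Hhla1 (distance 0.193), Cep85 (0.261), Fut11 (0.270), the clock gene Per1 (0.275) and the mitotic kinesin gene Kif2c (0.295). Iqcf1, Trim65, Pdia2, Igfbp2 and Ddit4l followed, at 0.312 to 0.411. Pdia2, a protein disulfide isomerase of the pancreas, had levels of -3.37 and -2.05 in knockout and of -3.09 and -3.22 in wild type.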

How the data were processed

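Small intestine RNA, carrying Cy3, was hybridised to Agilent mouse arrays, 1 sample per array. The submitters' processing notes name Agilent Feature Extraction 11.5.1.1 as the software. The deposited intensity had been background-subtracted and detrended by it, per the file headers, and was not scaled between arrays. It stood beside median spot and background intensity and other quality flags. The authors' table of log2 values matched these signals, scaled and centred per probe, within 0.01 over 39408 probes, so it keeps no levels. It served as an alternative.

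Spots flagged as outliers were left out and each array was scaled to its 75th percentile. Of 39429 probes 28025 matched 1 symbol through RefSeq accessions (GRCm38.p6). Probes well above background on at least 2 arrays gave 14395 genes, by the brightest probe, compared with limma 3.58.1 in R 4.3.3 (intensity trend, Benjamini-Hochberg). Knockout 1 and wild type 2 shared a slide; the other arrays were alone on theirs. The number of arrays limits the precision.

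The members and lists were chosen with earlier results of these data known. The naming rule took all members, the other acinar enzymes (1 is not reported here), the 3 brightest genes per further list and the 10 nearest patterns. Of the further lists the text gives some of these, picked with their values known. Muc5ac, Atp4a, Atp4b, Gp2, Sycn, Ptf1a, Rbpjl, Bhlha15, Adipoq, Cuzd1, Serpini2 and Aqp12 were named after their values were seen. Normexp used median spot signal, without spots flagged in signal or background.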

Additional observations from a re-analysis of the deposited data

How the results depend on the processing

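The count of 0 digestive enzyme genes called held in every fit run: each alternative to the scaling, background correction, filter, probe choice or variance model, the authors' table, a replicate block, and each array left out. The 4 genes measured on all arrays stayed 4 by either weaker rule for a measured spot, which was added after seeing the data. Their median difference ran from 0.14 to 0.79 with single arrays left out. In those fits Cela1 ran from -1.11 (without knockout 2) to 1.30, Cel from -0.013 (without knockout 1) to 1.44, and Clps from -0.24 (without knockout 2) to 0.22 (without knockout 1), so that all 3 changed sign. Cela1 was -1.84 within the shared slide. The cause was not tested. Over all genes, calls ran from 0 to 135 higher and from 0 to 298 lower with single arrays left out, the most without knockout 2. There a lone array is assumed to vary like the others. Requiring signal on all 4 arrays left 0 lower, since the deleted genes are then not tested. The replicate block gave 6 higher and 26 lower, and 0 digestive enzyme genes. Same-numbered arrays share only a number (their deviations correlated at 0.05). A slide term could not be fitted, as it leaves no residual degrees of freedom.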

Other observations

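Islet, duct and regional genes were set beside the acinar ones. Of 13 islet genes 12 were tested and 0 called, with a median difference of 0.08. Their brightest members, which gut endocrine or other gut cells also carry, overlapped between genotypes: Chga had levels of 2.49 and 2.11 in knockout and of 2.51 and 1.43 in wild type, and the factor gene Pdx1 of 1.54 and 0.79 in knockout and of 1.47 and 1.00 in wild type. Mafa had levels of 2.49 and 1.13 in knockout and of 1.36 and 1.63 in wild type. Of 8 genes of pancreatic duct, 7 were tested and 0 called, with a median of -0.12, led by Krt19, Car2 and the chloride channel gene Cftr, which the gut also expresses. Cftr had levels of 1.72 and 1.99 in knockout and of 1.78 and 2.43 in wild type. Genes of proximal small intestine (11 tested, median 0.07), distal small intestine (8 tested, median 0.24) and lymphoid cells (8 tested, median -0.27) also had 0 calls.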
